A study of Homo sapiens with 4 samples.

Results

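The BH3-only genes encode the proteins that start apoptosis at the mitochondrion. Their products carry a single short helix, the BH3 domain, which docks into a groove on other members of the BCL2 family. Some of them, BIM, BID and PUMA, can activate the pore-forming effectors BAX and BAK directly, and others, such as NOXA, BAD, HRK, BMF and BIK, mainly occupy the anti-apoptotic guardians such as MCL1 and BCL-XL and so free what these hold. Much of their control is transcriptional: FOXO factors, E2F1 and the unfolded protein response act on individual members, and p53 acts on PUMA and NOXA, while BID and BAD are controlled largely after translation.

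Here 9 genes were followed by name, from membership of the family and not by a threshold on their values, although earlier results of these data were known when they were listed: BCL2L11 (BIM), BBC3 (PUMA), PMAIP1 (NOXA), HRK, BAD, BID, BMF, BIK and BNIP3L (NIX), a mitophagy receptor with a BH3-like segment. All 9 were among the 57905 genes counted, and 8 were among the 16416 genes with enough reads to be tested; BIK was not.

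RNA was sequenced from U87MG, an established human glioblastoma cell line labelled wild type. One group of 2 samples had been kept for 24 h with 50 nM chaetocin, a fungal metabolite that inhibits histone lysine methyltransferases such as SUV39H1. The other group of 2 samples was left untreated; because chaetocin was dissolved in DMSO, the solvent and the compound cannot be told apart. The comparison asks which death genes had changed in transcript level at this dose, in 1 cell line and at 1 time point. Nothing in the sample descriptions says that the samples of a group came from separate cultures. The paper's methods mention cells seeded in multi-well plates and duplicates of each group, without saying how independent these were. The p-values therefore measure only the spread between these samples, which may be technical. The same study also assayed BBC3, PMAIP1, HRK, BCL2L11 and BAD by qPCR at a higher chaetocin dose. Since the doses differ, no comparison with those assays was made.

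The BH3-coding stretch of 8 of the genes is given here because it is the feature that makes them a family. Each run covers 16 codons of the GENCODE 29 principal transcript in GRCh38, read 5′ to 3′ on the coding strand. Capitals mark the 6 codons from the conserved leucine to the conserved aspartate, which a search for leucine, any 2 residues, a hydrophobic residue, a small residue and aspartate found exactly 1 time in each protein.
BCL2L11: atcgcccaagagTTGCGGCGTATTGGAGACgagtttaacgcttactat
BBC3: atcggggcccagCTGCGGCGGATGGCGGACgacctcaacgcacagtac
BID: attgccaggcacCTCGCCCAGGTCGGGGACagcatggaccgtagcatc
PMAIP1: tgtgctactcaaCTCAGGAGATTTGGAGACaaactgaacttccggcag
BAD: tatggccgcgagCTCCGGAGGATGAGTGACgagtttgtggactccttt
HRK: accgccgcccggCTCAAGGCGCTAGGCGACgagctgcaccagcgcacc
BMF: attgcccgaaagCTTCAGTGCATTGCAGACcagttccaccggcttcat
BIK: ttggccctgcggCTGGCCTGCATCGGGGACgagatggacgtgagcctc

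In BCL2L11 the stretch lies in coding exon sequence at chr2:111150091-111150138 on the plus strand, in exon 4 of 5. It lies at chr19:47226573-47226620 on the minus strand in BBC3 (exon 3 of 4) and at chr22:17739409-17739456 on the minus strand in BID (exon 4 of 6). Among the sensitizers it was found at chr18:59902661-59902708 on the plus strand in PMAIP1 (exon 2 of 2) and at chr11:64271616-64271663 on the minus strand in BAD (exon 3 of 4). The HRK stretch is at chr12:116881164-116881211 on the minus strand (exon 1 of 2). In BMF it is at chr15:40104189-40104236 on the minus strand (exon 4 of 5), and in BIK at chr22:43127704-43127751 on the plus strand (exon 3 of 5). The leucine and the aspartate were shared by construction of the search, which also limited the hydrophobic and the small residue before the aspartate. Some codons in between were shared, such as CGG after the leucine in BCL2L11, BBC3 and BAD. The run in capitals as a whole differed from gene to gene.

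Chaetocin-treated cells held more BCL2L11 mRNA than untreated cells, 2.51-fold, and this was the only BH3-only gene past the threshold. BBC3, PMAIP1 and BMF were higher in both treated samples than in both controls, and BID was lower in both, without passing the test. HRK, BAD and BNIP3L overlapped between the groups. BIK was close to undetected. Levels below are CPM (counts of a gene relative to the TMM-scaled total of its library), and changes are log2 fold changes of chaetocin over control from edgeR's quasi-likelihood test, with p adjusted by Benjamini-Hochberg over all 16416 genes.

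**Figure D1:**
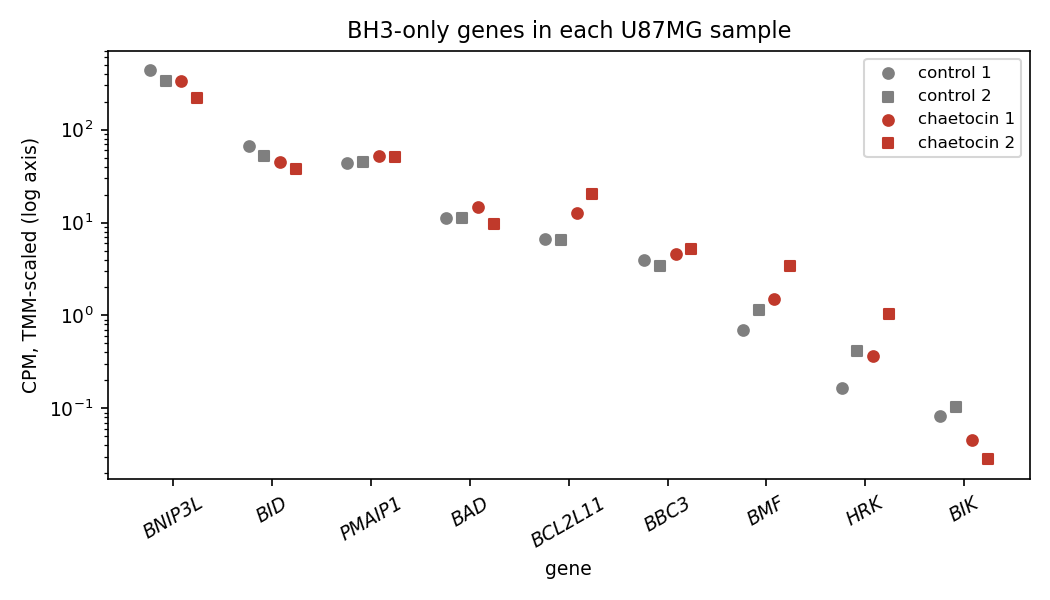
Level of each BH3-only gene in each sample, in TMM-scaled CPM on a log axis; grey marks are the 2 controls and red marks the 2 chaetocin samples. BNIP3L lies highest, between 219 and 437 CPM, BIK lies lowest, and both red BCL2L11 marks lie above both grey ones.

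Library totals ran from 21241984 to 32590479 counts, and 3 counts corresponded to 0.0844 to 0.138 CPM. At a threshold of 0.05, 182 genes were called higher and 122 lower in chaetocin, with a median log2 change of 0.01 over all tested genes. The glioma line's mesenchymal genes VIM and CD44 were abundant in all 4 samples. S100B and SOX2 had no reads in the controls and 2 to 5 in chaetocin, too few to be tested. GFAP, OLIG2 and FABP7 were also scarce, with at most 65 reads in any sample. Of 10 glial markers 7 were tested, and SLC1A3, a glutamate transporter, was called lower in edgeR's test (log2 −1.22, adjusted p = 0.0266). The 7 had a median log2 change of −0.80, for 6 of them each treated sample lay below each control, 4 were lower at an unadjusted p under 0.05, and DESeq2 called 3 lower. Over all genes these shares were 26, 9.43 and 2.81 percent. With 1 sample left out, the median of the tested glial markers ran from −1.05 without the first chaetocin sample to −0.54 without the second. Among markers named after their values were seen, VIM was at −0.80 (adjusted p = 0.134) and CD44 at −1.20 (adjusted p = 0.0699) in edgeR's test. Of 16 leukocyte markers 6 were tested and 3 called higher, PTPRC, ITGAM and FCER1G. PTPRC and ITGAM had 0 and 1 reads in the controls and 15 to 29 in chaetocin, so they were tested only because of their reads in chaetocin and had to differ; with at least 10 counts in every sample, 3 were tested and 1 called. CD3E, MS4A1, CD8A and TYROBP had 0 reads in every sample. The summed leukocyte level was 29.6 and 25.1 CPM in the controls and 40.4 and 23.9 CPM in chaetocin. Most of it came from CSF1R, singled out after its values were seen, at 27.2 and 22.0 CPM against 32.7 and 15.1 CPM. The other 15 markers summed to 2.42 and 3.06 CPM in the controls and 7.72 and 8.73 CPM in chaetocin, without overlap. Both treated samples lay above both controls for 26.8 percent of all tested genes. This sum was formed after the values were seen and includes PTPRC and ITGAM, which had to differ. CD4 went the other way, with 8 and 11 reads in the controls and 7 and 3 in chaetocin. In the fibroblast list of 6, PDGFRB was called lower (log2 −1.65, adjusted p = 0.0306), a call lost without the second chaetocin sample. Of this list 2 were lower at an unadjusted p under 0.05, 3 had each treated sample below each control, and DESeq2 called 2 lower. The shares of all genes are those given for the glial list. The median was −0.58, and ran from −0.84 without the first chaetocin sample to −0.37 without the first control. In the reported fit edgeR called 0 of 3 tested epithelial and 0 of 2 tested endothelial markers. At an unadjusted p under 0.05 these were 2 epithelial genes higher, and 1 endothelial gene higher and 1 lower; DESeq2 called 0 and 1 of them. The part of these markers in the changes below was not tested, and in bulk RNA fewer cells of a kind and less RNA per cell cannot be told apart.

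Of the 8 tested BH3-only genes, 1 was called higher, where 1.11 percent of all genes were, and 0 were called lower, where 0.743 percent were. At an unadjusted p under 0.05 the counts were 2 higher (BCL2L11 and BMF) against a background of 10.9 percent, and 1 lower (BID) against 9.43 percent. Both chaetocin samples lay above both controls for 4 of the 8 genes, BCL2L11, BBC3, PMAIP1 and BMF, a pattern found in 26.8 percent of all genes. Both lay below for 1, BID, against 26 percent. With so few genes these counts describe the list and show nothing particular to it. The median log2 change of the 8 was 0.32. It was 0.49 with total-count scaling, which moved the median of all genes to 0.17, and 0.21 without the filter, where all 9 had a value. DESeq2's Wald test also called 1 higher and 0 lower, where it called 2.72 percent of all genes higher and 2.81 percent lower.

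**Figure D2:**
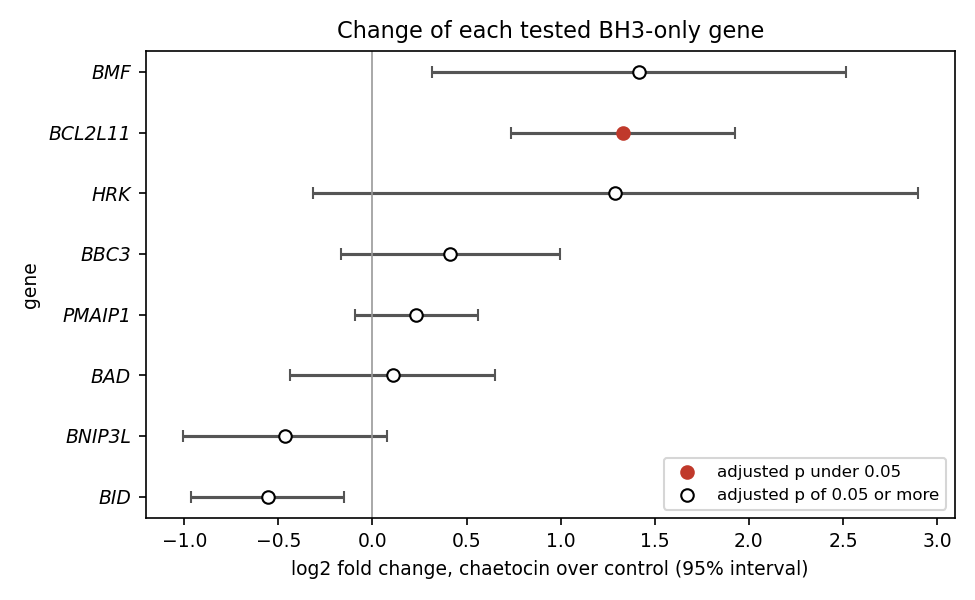
Log2 fold change of the 8 tested genes, chaetocin over control, with 95% intervals from edgeR; the filled mark has an adjusted p under 0.05. The intervals of BCL2L11, BMF and BID leave out 0, and only that of BCL2L11 belongs to a gene past the adjusted threshold.

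BCL2L11 encodes BIM, which binds every guardian and also activates BAX and BAK. It had 162 and 186 reads in the controls and 273 and 720 in chaetocin, or 6.64 and 6.47 CPM against 12.5 and 20.3 CPM. The controls lay close together and both treated samples lay well above them, the second higher than the first. The mean rose from 6.56 ± 0.117 to 16.4 ± 5.46 CPM (SD, n = 2 each). The log2 change was 1.33 (SE 0.26, 95% interval 0.73 to 1.92), or 2.51-fold with an interval of 1.66 to 3.79, and the adjusted p was 0.0466 in edgeR's test. The call sat near the threshold. It was lost when every sample had to hold at least 10 counts for a gene to be tested (adjusted p = 0.0562, log2 1.35), whereas DESeq2's Wald test gave an adjusted p of 0.000589, and the adjusted p ran from 5.25e-06 to 0.0562 over the 7 other settings with all samples. Without the second chaetocin sample the log2 change was 0.93, and the call was kept in each fit that left out 1 sample.

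By p BCL2L11 ranked 286 and by size of increase 750 among the 16416 tested genes. It shares 10.9 percent of its exon bases with MIR4435-2HG, a non-coding RNA on the opposite strand. The counting step's strand setting is not given in the sources used here, so reads in the shared bases cannot be assigned to 1 strand. MIR4435-2HG itself had 693 and 838 reads in the controls and 733 and 788 in chaetocin, and these ranges overlapped.

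The promoter of BCL2L11 is shown because BCL2L11 is the one member past the adjusted threshold, and because FOXO factors are known to act on this gene. It covers 250 bases before to 50 bases after the start, at chr2:111120664-111120963 on the plus strand (RefSeq, GRCh38.p14). The capitals mark the FOXO core GTAAACA.
BCL2L11 promoter: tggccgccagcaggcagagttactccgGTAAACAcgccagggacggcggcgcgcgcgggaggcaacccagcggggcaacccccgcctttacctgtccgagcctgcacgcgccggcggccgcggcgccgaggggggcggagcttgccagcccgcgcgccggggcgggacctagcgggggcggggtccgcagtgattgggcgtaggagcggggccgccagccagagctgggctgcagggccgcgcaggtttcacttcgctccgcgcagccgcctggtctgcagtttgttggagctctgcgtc
The core begins at base 28 of the window, 223 bases before the start. Searched on both strands, the same letters stood in 1202 of 35116 promoter windows of this length, or 3.42 percent, and in 1 of the 7 BH3-only genes that had a window. The E2F cores TTTCCCGC, TTTGGCGC, TTTCGCGC and TTTGCCGC stood in 1164 windows, or 3.31 percent, and in 0 of the 7. A match is a description of the letters and says nothing about binding in these cells.

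BBC3 encodes PUMA, a p53 target that also binds every guardian. Its levels were 3.93 and 3.45 CPM in the controls and 4.60 and 5.21 CPM in chaetocin. Both treated samples lay above both controls, and the nearest values of the groups, 3.93 and 4.60 CPM, were farther apart than the samples within either group. Its log2 change was 0.41 (SE 0.25, 95% interval −0.17 to 1.00), and edgeR's adjusted p was 0.401. The interval corresponds to 0.89-fold to 1.995-fold.

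BID joins the death receptor pathway to the mitochondrion, since caspase-8 cuts it into its active form. Its reads numbered 1645 and 1514 in the controls and 967 and 1324 in chaetocin, or 67.4 and 52.7 CPM against 44.4 and 37.3 CPM. Both treated samples were lower than both controls. For BID the log2 change was −0.56 (SE 0.18, 95% interval −0.96 to −0.15), and edgeR's adjusted p was 0.136. It passed the threshold without the first chaetocin sample (−0.68, adjusted p = 0.0126) and without the low-count filter (−0.58, adjusted p = 0.0315), and was −0.38 without the first control. Among the direct activators, then, BCL2L11 passed the test as higher, whereas the BID estimate was negative and that of BBC3 smaller and positive, neither of them past the threshold in the fit with all samples, the filter and group as the only term.

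PMAIP1 encodes NOXA, which binds MCL1 and promotes its degradation. It was the most abundant sensitizer, at 43.2 and 44.6 CPM in the controls and 52.6 and 50.6 CPM in chaetocin. The samples of each group lay within a narrow range and the groups did not overlap. The shift was small, with a log2 change of 0.23 (SE 0.14, 95% interval −0.09 to 0.56) and an adjusted p of 0.401 in edgeR's test. An increase larger than 1.48-fold lies outside this interval.

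BMF encodes a protein held at the cytoskeleton through dynein light chain DYNLL2 until it is freed by stress signals. It was scarce, with 17 and 33 reads in the controls and 33 and 120 in chaetocin, or 0.697 and 1.15 CPM against 1.52 and 3.38 CPM. All treated values exceeded all control values, and the second chaetocin sample stood apart from the first. The log2 change was 1.42 (SE 0.48, 95% interval 0.32 to 2.52) with an adjusted p of 0.153 in edgeR's test. Its estimate was thus as large as that of BCL2L11 but less precise. Without the second chaetocin sample it fell to 0.70, and without the first it was 1.86 and passed the threshold (adjusted p = 0.00683).

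HRK, a sensitizer best known from neurons, was near the limit of detection. It had 4 and 12 reads in the controls and 8 and 37 in chaetocin, or 0.164 and 0.418 CPM against 0.368 and 1.04 CPM. The first chaetocin sample lay between the controls, so the higher mean rested on the second. The log2 change was 1.29 (SE 0.70, 95% interval −0.32 to 2.90), and edgeR's adjusted p was 0.343. It was 0.30 without the second chaetocin sample and 2.11 without the second control, so no size can be given to a change of this gene at this depth.

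BAD encodes a sensitizer kept inactive by survival kinases and 14-3-3 proteins. Its controls were nearly equal, at 11.3 and 11.2 CPM, and the chaetocin samples fell on either side of them, at 14.7 and 9.71 CPM. For BAD the log2 change was 0.11 (SE 0.24, 95% interval −0.44 to 0.65), with an adjusted p of 0.843 in edgeR's test. It turned to −0.21 without the first chaetocin sample and was 0.38 without the second. BAD shares 23.7 percent of its exon bases with GPR137 on the opposite strand, which had 1474 and 1817 reads in the controls and 1667 and 2980 in chaetocin, so its counts are uncertain if strand was not used.

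BIK, a sensitizer of the endoplasmic reticulum, had 2 and 3 reads in the controls and 1 and 1 in chaetocin. All 4 values were at or under the floor of 3 counts, so no fold change is given and a difference was not detectable at this depth.

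BNIP3L encodes NIX, which recruits autophagy to mitochondria and is induced by hypoxia. It was by far the most abundant of the 9, with 437 and 333 CPM in the controls and 338 and 219 CPM in chaetocin. The first chaetocin sample lay between the controls, and the second lay below them. The log2 change was −0.47 (SE 0.24, 95% interval −1.01 to 0.08), and edgeR's adjusted p was 0.315. Without the first chaetocin sample it was −0.81 and passed the threshold (adjusted p = 0.0072), whereas it was −0.27 without the first control and −0.19 without the second chaetocin sample.

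**Figure D3:**
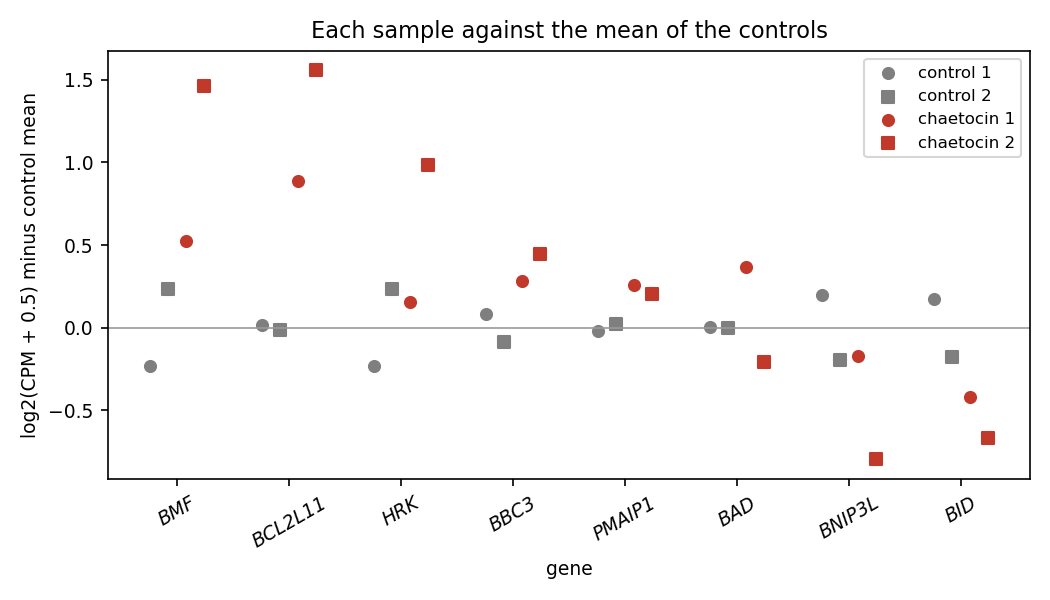
Log2(CPM + 0.5) of each sample minus the mean of the 2 controls, for the 8 tested genes; grey marks are controls and red marks chaetocin samples. The second chaetocin sample (red squares) reached 1.56 for BCL2L11 and 1.47 for BMF, whereas the 2 red marks of BAD lie on opposite sides of 0.

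The 2 chaetocin samples did not move the genes equally. On the log2(CPM + 0.5) scale, which understates changes of scarce genes, BCL2L11 stood 0.89 above the control mean in the first sample and 1.56 in the second. The corresponding values were 0.52 and 1.47 for BMF, 0.15 and 0.98 for HRK, and −0.17 and −0.80 for BNIP3L. PMAIP1, at 0.26 and 0.20, and BBC3, at 0.28 and 0.45, were more alike. The second sample was the farther one on the same side for 6 of the 8 genes, against 37.8 percent of all tested genes. The libraries of the chaetocin group also differed more from each other than the controls did, with a chi-square per degree of freedom of 61.2 against 20.7. With 2 samples against 2, an exact two-sided permutation test of a single gene cannot give a p below 0.333, the value it gave for BCL2L11.

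The order of the levels was compared in CPM per kilobase of exon, with exon lengths from GENCODE 29 on GRCh38, whereas the reads were counted on GRCh37. In the controls BNIP3L (89.3) was followed by PMAIP1 (19.6), BID (13.5), BAD (6.60), BBC3 (1.16), BCL2L11 (0.985), BMF (0.169), BIK (0.0978) and HRK (0.0424). In chaetocin the order was BNIP3L (64.7), PMAIP1 (23.1), BID (9.19), BAD (7.15), BCL2L11 (2.46), BBC3 (1.54), BMF (0.449), HRK (0.103) and BIK (0.0389). On this scale BCL2L11 stood below BBC3 in the controls and above it in chaetocin, and its 2 chaetocin values, 1.88 and 3.04, lay above the 1.45 and 1.64 of BBC3. In the controls the neighbours BBC3 (1.24 and 1.08) and BCL2L11 (0.997 and 0.972) lay close together without overlap. The change of order of BCL2L11 and BBC3 rests on the exon lengths used, 6.66 and 3.18 kb: in CPM, BCL2L11 was above BBC3 in all 4 samples. BIK and HRK also changed places, but all BIK counts were at or under the floor of 3, so their order cannot be told.

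Set beside the proteins they act on, the changes were as follows. The guardians MCL1 and BCL2L1 (BCL-XL), named here after their values were seen, had log2 changes of −0.64 (adjusted p = 0.135) and −0.51 (adjusted p = 0.169) in edgeR's test. BCL2L2 (BCL-W), also named after its values were seen, was at 0.45 (adjusted p = 0.155). Of 6 guardian genes 4 were tested and edgeR called 0, with 1 higher and 2 lower at an unadjusted p under 0.05 (10.9 and 9.43 percent of all genes). DESeq2 called 1, MCL1, lower (adjusted p = 0.044), and edgeR called 2 lower, MCL1 and BCL2L1, without the first chaetocin sample and also without the low-count filter (adjusted p = 0.0101 and 0.0497). The shares of all genes called lower in these 3 fits were 2.81, 9.48 and 2.39 percent. Without the second chaetocin sample MCL1 was at −0.42 and BCL2L1 at −0.30. The list's median was −0.12, which turned to 0.05 when libraries were scaled by total counts, under which all genes shifted by 0.17. It was −0.28 without the first control, and 0.34 without the filter, where all 6 genes had a value. Of 3 effectors 2 were tested and 0 called by edgeR or DESeq2, with 1 higher at an unadjusted p under 0.05. That one was BAX, at 0.37 (adjusted p = 0.222), which passed the threshold without the second chaetocin sample (0.49, adjusted p = 0.0297), but was at 0.24 without the first (adjusted p = 0.234). The median was 0.20, or 0.07 without the second chaetocin sample.

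**Figure D4:**
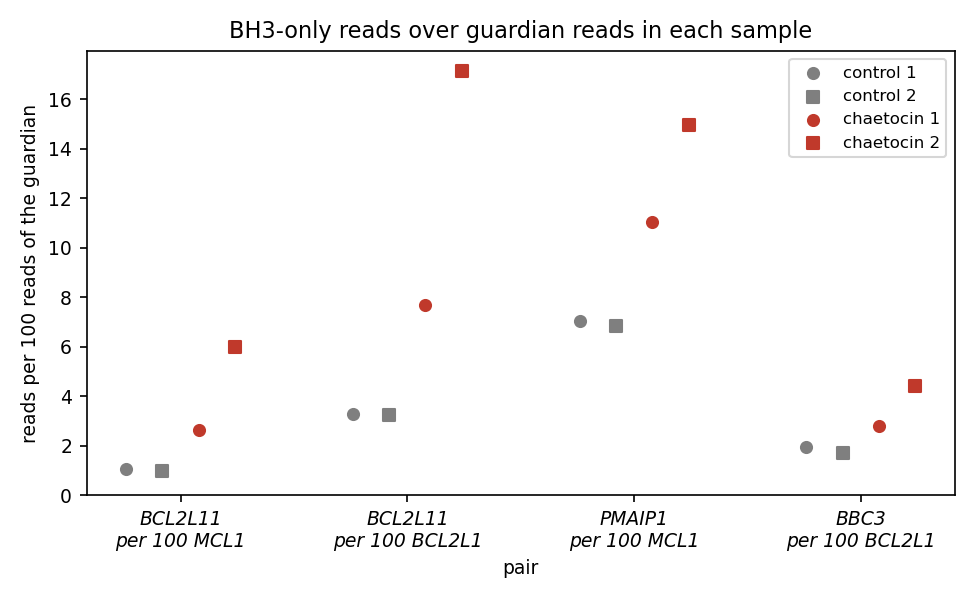
Reads of a BH3-only gene per 100 reads of a guardian gene in the same sample; grey marks are the 2 controls and red marks the 2 chaetocin samples. In each of the 4 pairs both red marks lie above both grey marks.

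Ratios of reads within a sample do not depend on how libraries were scaled. BCL2L11 had 1.08 and 0.991 reads per 100 MCL1 reads in the controls and 2.64 and 5.98 in chaetocin, a 4.16-fold difference of the means that was 2.54-fold without the second chaetocin sample. Per 100 BCL2L1 reads it had 3.30 and 3.23 against 7.68 and 17.2, a 3.80-fold difference that was 2.35-fold without it. Neither ratio overlapped between groups. PMAIP1, the partner of MCL1, had 7.04 and 6.82 reads per 100 MCL1 reads in the controls and 11.1 and 14.9 in chaetocin, again without overlap. BBC3 had 1.96 and 1.72 reads per 100 BCL2L1 reads against 2.81 and 4.41. BMF had 0.599 and 0.908 reads per 100 reads of its tether DYNLL2 against 1.30 and 2.26. BID per CASP8 and BNIP3L per BNIP3, in contrast, overlapped between the groups. These ratios are descriptions of mRNA and were not tested, and the pairs were chosen with earlier results known. The estimates of MCL1 and BCL2L1 were 0.643-fold and 0.701-fold, and each ratio over them carries this part. BCL2L2 and BCL2, at 1.37-fold and 1.21-fold, were not used as a base. PMAIP1 by itself was at 1.175-fold.

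The regulators and partners of the family were described from lists. Of 13 transcription factors known to drive BH3-only genes, 1 was called higher and 0 lower. Their median log2 change was 0.04, or −0.04 without the first control and 0.10 without the second. At an unadjusted p under 0.05, 3 were higher and 4 lower, against 10.9 and 9.43 percent of all genes. EdgeR called 3 higher and 3 lower without the low-count filter (2.48 and 2.39 percent of all genes). With total-count scaling it called 3 higher and 0 lower (2.19 and 0.445 percent). DESeq2 called 3 higher and 1 lower, against 2.72 and 2.81 percent of all genes. Without the first or the second chaetocin sample edgeR called 3 higher in each case, and 5 and 3 lower, and without either control it called 0. Those 2 fits without a chaetocin sample also called more of all genes, 7.55 and 4.23 percent higher and 9.48 and 5.59 percent lower. The one called in the reported fit was E2F1, a cell cycle factor that can also induce BH3-only genes. Its levels were 166 and 175 CPM in the controls and 345 and 315 CPM in chaetocin, without overlap, and its log2 change was 0.95 (SE 0.15, adjusted p = 0.0311). That call was lost without either control, with log2 changes of 0.90 and 0.98. Chosen after their values were seen, FOXO3 had a log2 change of 0.21 (adjusted p = 0.501), which was 0.34 without the first chaetocin sample and 0.06 without the second. The change was 0.33 for FOXO1 (adjusted p = 0.605), or −0.03 without the second chaetocin sample.

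Of 18 genes known as p53 targets, 2 were called higher and 0 lower, and the median was 0.34, or 0.21 without the second chaetocin sample. At an unadjusted p under 0.05, 8 were higher and 1 lower, against 10.9 and 9.43 percent of all genes, and DESeq2 called 3 higher. The share of all genes called higher was the 1.11 percent given above. Without 1 sample the number called higher ran from 1 without either control (1.2 and 1.24 percent of all genes) to 9 without the first chaetocin sample, where 7.55 percent of all genes were called higher and 1 target was called lower. MDM2, the ubiquitin ligase that degrades p53, went from 120 and 126 CPM to 211 and 212 CPM (log2 0.78, adjusted p = 0.0399), a call lost without either control. TP53INP1, a p53-induced cofactor, went from 34.6 and 33.7 CPM to 70.3 and 128 CPM (log2 1.54, adjusted p = 0.0341). CDKN1A, the cell cycle inhibitor p21, was at 0.40 (adjusted p = 0.194) and passed only in the fit without the first chaetocin sample (0.48, adjusted p = 0.0205). BBC3 and PMAIP1, which p53 also drives, had estimates of 0.41 and 0.23 as given above, and whether they differ from these targets was not tested.

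Among 16 partners that hold, cut or turn over BH3-only proteins, 0 were called in either direction by edgeR or DESeq2. At an unadjusted p under 0.05, 1 was higher and 2 lower, against 10.9 and 9.43 percent of all genes. Both treated samples lay above both controls for 3 and below for 9, against 26.8 and 26 percent. Whether these counts are particular to the list was not tested. The median was −0.20, or −0.03 with total-count scaling. It was −0.26 without the first chaetocin sample and −0.19 without the second. Among 9 further genes with a BH3 or BH3-like motif, 7 were tested and 0 called by either tool, with 1 higher and 0 lower at an unadjusted p under 0.05 and a median of −0.05, which was 0.12 with total-count scaling. The sign of that median was not stable when samples were left out: it was 0.09 without the first control, 0.02 without the first chaetocin sample, where 1 was called lower, and 0.28 without the second, where 1 was called higher and 1 lower.

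Over the 4 samples, the 3 genes closest to BCL2L11 in centred log2 CPM, among 9476 genes averaging at least 10 CPM, were SLC12A8, RDH10 and NEIL3. Their Euclidean distances were 0.119, 0.139 and 0.140, and their log2 changes were 1.23, 1.27 and 1.30. SLC12A8 and RDH10 also lost their calls when every sample had to hold at least 10 counts. SLC12A8 is a transporter of the cation-chloride cotransporter family, RDH10 a retinol dehydrogenase and NEIL3 a DNA glycosylase. Since they were chosen for their likeness over these samples, their similar changes were fixed by the choice.

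**Figure D5:**
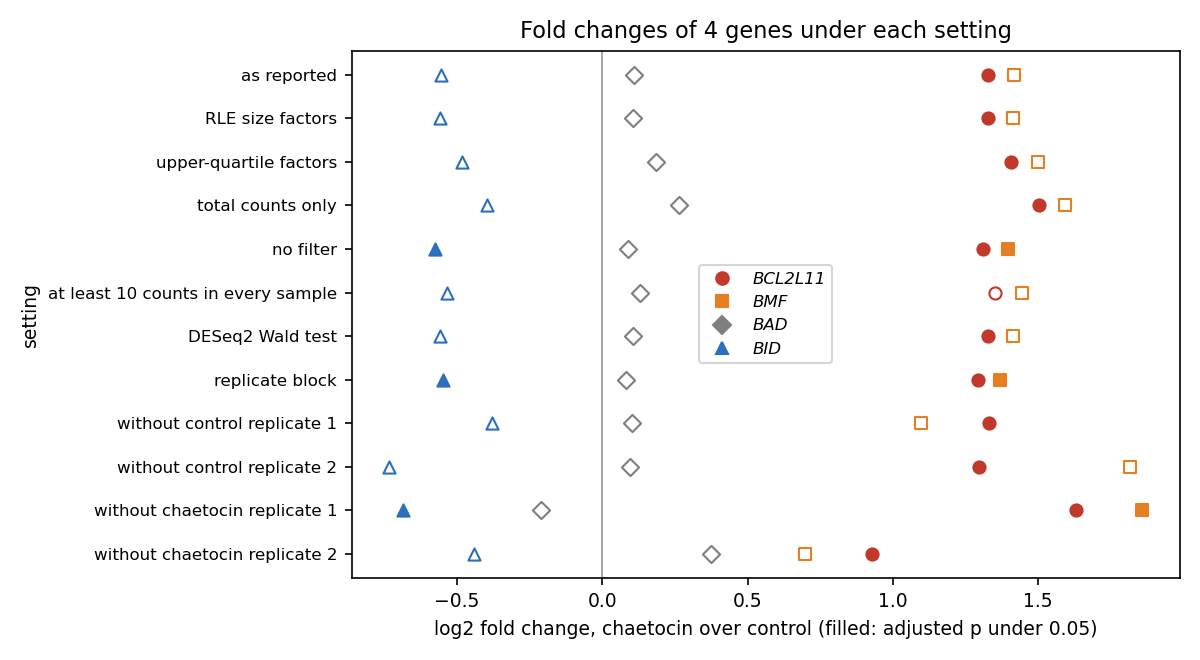
Log2 fold change, chaetocin over control, of BCL2L11, BMF, BAD and BID under the reported setting and 11 others; filled marks have an adjusted p under 0.05. BCL2L11 stays between 0.93 and 1.63 and loses its call under 1 setting, and BAD crosses 0 without the first chaetocin sample.

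Across the settings tried, the direction of BCL2L11, BBC3, PMAIP1, HRK, BMF, BID and BNIP3L was the same as reported in each one that gave a value. The log2 change of BCL2L11 ran from 1.29 to 1.50 with all samples and from 0.93 to 1.63 with 1 sample left out. PMAIP1 was the steadiest in size when samples were left out, between 0.20 and 0.25, and HRK the least steady, between 0.30 and 2.11.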

How the data were processed

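RNA-seq was available for 4 U87MG samples, 2 per group, as 1 table each. The authors deposited raw counts per Ensembl gene, 57905 rows; per the submitters' processing notes reads were handled with cutadapt, TopHat2 and SAMtools on GRCh37. The counting tool and its strand setting are not given in the sources used here. Symbols came from a name table (51996 identifiers matched) and GENCODE 29. Groups followed the sample labels.

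Genes were filtered with filterByExpr (minimum count 10), scaled with TMM and tested with edgeR 4.0.16 (R 4.3.3; robust quasi-likelihood fit, group as the only term), with Benjamini-Hochberg adjustment over 16416 genes and a threshold of 0.05. CPM were computed from these counts, and log2 CPM used a pseudocount of 0.5. Intervals are 95%. Alternatives were RLE, upper-quartile and total-count scaling, no filter, at least 10 counts in every sample, DESeq2 1.42.0, the replicate number as a block, and leaving out each sample. The test was checked on drawn counts for chaetocin against control with 16416 genes: 100 of 100 genes changed 4-fold and 69 of 100 changed 2-fold were recovered, and 7 of 176 calls were unchanged genes. The draws gave every gene and both groups the same relative spread, 16.8 percent, and only well-counted genes were changed. In the samples the chaetocin pair differed more than the controls, and HRK and BIK are scarce. These rates therefore do not carry over to scarce genes or to unequal spread.

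All 9 members were named. From each other list the genes past the threshold were named, at most 4 by p, with MDM2 and CDKN1A always; other list genes in the text (such as VIM, CD44, S100B, SOX2, CSF1R, the markers at 0 reads, MCL1, BCL2L1, BCL2L2, BAX, FOXO1 and FOXO3) were named after their values were seen; for likeness, the 3 closest genes with at least 10 CPM on average. The members, lists and rules were chosen with earlier results of these data known. Count differences between samples of a group exceeded sampling noise, so none were merged. The floor of 3 counts covers counting error only.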

Additional observations from a re-analysis of the deposited data

How the results depend on the processing

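Removing the low-count filter gave 787 genes called higher and 759 lower, or 2.48 and 2.39 percent of 31692 genes. Of the BH3-only genes, 2 were higher and 1 lower in that fit. BMF at 1.40 (edgeR, adjusted p = 0.0248) and BID at −0.58 (adjusted p = 0.0315) joined BCL2L11. Requiring at least 10 counts in every sample gave 114 and 80 and 0 BH3-only genes higher, with BCL2L11 at 1.35 (edgeR, adjusted p = 0.0562). HRK has no value under that filter, and BIK has one only without a filter, where all its counts are at or under the floor. Scaling by total counts gave 360 higher and 73 lower, and moved the median log2 change of all genes to 0.17, against which BCL2L11's 1.50 is to be read. DESeq2 called 447 higher and 461 lower. The causes of these differences were not tested.

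The groups share replicate numbers, but nothing in the labels says that a number marks a shared culture or day, and the deviations of same-numbered samples correlated at 0.191 over genes. Fitting a block term for that number, 1036 genes were called higher and 1053 lower, or 6.31 and 6.41 percent of all genes. With the block 2 BH3-only genes were higher and 1 lower. BMF was at 1.37 (edgeR, adjusted p = 0.021) and BID at −0.55 (adjusted p = 0.0165). MCL1 (−0.66, adjusted p = 0.0185) and BCL2L1 (−0.53, adjusted p = 0.0232) passed as lower, and 1 of the 16 partners as higher.

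With 1 sample left out, the lone sample of its group is assumed to vary like the other group. Genes called higher then ran from 215 to 1332 and lower from 97 to 1673, highest in both directions without chaetocin 1 and also raised (712 and 940) without chaetocin 2. BH3-only genes called higher numbered 1 to 2 and lower 0 to 2. BCL2L11 ran from 0.93 to 1.63, BID from −0.73 to −0.38, BMF from 0.70 to 1.86, BNIP3L from −0.81 to −0.19, and BAD from −0.21 to 0.38, turning negative without chaetocin 1. Without chaetocin 1, BID (−0.68, adjusted p = 0.0126), BMF (1.86) and BNIP3L (−0.81) passed the threshold. BBC3 and PMAIP1 kept their direction and had adjusted p above 0.05 in every fit listed here.

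Depth limits HRK and BIK. For 18 other named genes, refitted under the same settings after the data were seen, 177 values kept their direction and side of the threshold, 9 lost the call, 9 gained it and 1, FOXO1 without chaetocin 2, turned to −0.029 (range 0.61 to −0.029 with 1 sample left out). The calls of E2F1 and MDM2 were lost without either control, PTPRC and FCER1G without control 1, and PDGFRB without chaetocin 2.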

Other observations

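As shares of the summed CPM of the 9 genes, which 1 abundant gene dominates, BNIP3L took 76.6 and 73.5 percent in the controls and 72.1 and 63.2 percent in chaetocin. BCL2L11 took 1.16 and 1.43 percent against 2.68 and 5.85 percent, and PMAIP1 7.58 and 9.85 percent against 11.2 and 14.6 percent. Neither of the last 2 shares overlapped between the groups. The summed level of the 9 genes was 570 and 453 CPM in the controls and 469 and 347 CPM in chaetocin, and these ranges overlapped.

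PNMA2, which shares 7.7 percent of the exon bases of BNIP3L on the opposite strand, had 1921 and 2092 reads in the controls and 1054 and 1030 in chaetocin. Its part in the BNIP3L counts was not tested. BMF-AS1, which shares 8.5 percent of the exon bases of BMF on the opposite strand, had 0 reads in each sample.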
